A study of Mus musculus with 23 samples.

Results

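The heat shock chaperones described here are 8 mouse genes, Hspa1a, Hspa1b, Hsph1, Dnajb1, Hspa8, Hspb1, Hsp90aa1 and Hspe1, chosen by symbol from the count table. No rule on their values was used, but earlier results of these data were known when they were chosen. All 8 were among the 56379 genes of the table and among the 23083 genes with enough counts to be tested. RNA was sequenced from the skin and wounds of HTNF ki/ki Lepr db/db mice, 8 to 12 weeks old. The db mutation disrupts the leptin receptor, and homozygous mice are obese and diabetic. Each mouse received 4 full-thickness wounds with a 6 mm punch on the depilated back, and each sample was an 8 mm punch over a wound site. Mice were injected under the skin 2 times a week with vehicle (PBS, the control arm) or with 20 mg/kg adalimumab, a therapeutic antibody against human TNF. The 8 groups were control and adalimumab on day 0 (skin at the start) and on days 3, 7 and 10 (wounds), with 3 libraries each and 2 for adalimumab on day 10. Both arms shared the genotype, the wounding, the dressing and a single dose of tramadol, and no unwounded later skin was used here. The labels do not say whether day 0 skin was taken before the first injection, or which cells of the punch the RNA came from.

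Heat shock proteins are molecular chaperones, which bind unfolded protein chains and help them to fold, to disaggregate or to be degraded. When unfolded proteins accumulate, the transcription factor HSF1 forms trimers and binds heat shock elements, which are inverted repeats of the 3 bases GAA, in front of the inducible chaperone genes. In skin, chaperones are expressed constitutively in the epidermis and in muscle, and heat, injury and ischaemia are known to induce them.

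The libraries held 33080930 to 37494760 counts and 25289 to 29894 genes with at least 1 count, and the 8 chaperones together took 0.140% to 1.14% of the counts. Mitochondrially encoded genes took 4.41% to 18.1%. Days 0 and 3 were sampled from the same 3 mice of each arm by their label numbers, whereas days 7 and 10 came from other mice. Xist, an RNA of the inactive X chromosome, was found in all 12 libraries of days 0 and 3, and those of days 7 and 10 held the Y-linked Ddx3y instead, except adalimumab day 7 replicate 3. Differences of days 7 and 10 from day 0 therefore cannot be told apart from sex and from the animal series. Epidermal keratinocyte markers were present in every day 0 library (5051 to 11144 CPM, counts scaled to a common library total, summed over 10 genes), as the label skin implies, but ranged from 11.3 to 24597 CPM in wounds.

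The sequences in front of the chaperone genes are given first, because the inducible genes are defined by the heat shock element. RefSeq promoter sequences (build GRCm38.p6) were found for 6 of the 8 genes, all but Hspa8 and Hsp90aa1, and the 250 bases before each start were searched. The motifs were GAANNTTC and TTCNNGAA, the 2 arrangements of 2 units, and the 3-unit motifs that add NNGAA to the first or NNTTC to the second. Each 2-unit motif reads the same on both strands, the 3-unit motifs are each other's reverse complement, and every 3-unit match holds both 2-unit motifs. Capitals mark the matched bases, and positions are counted back from the base before the start. Hspa1a (chr17:34972157-34972406, minus strand) and Hspa1b (chr17:34959239-34959488, minus strand) are printed in full because they are neighbouring copies: 247 of these 250 bases were equal and 3 differed. A stretch of 30 bases around the matches is shown for Hsph1 (chr5:149636351-149636380, minus strand), Hspb1 (chr5:135887801-135887830, plus strand) and Hspe1 (chr1:55088053-55088082, plus strand), where the number and spacing of units differ. In GENCODE M21 the stretch of Hspe1 also lies in an untranslated exon of Hspd1 on the minus strand, and that of Hsph1 partly in the first exon of another Hsph1 transcript.
Hspa1a: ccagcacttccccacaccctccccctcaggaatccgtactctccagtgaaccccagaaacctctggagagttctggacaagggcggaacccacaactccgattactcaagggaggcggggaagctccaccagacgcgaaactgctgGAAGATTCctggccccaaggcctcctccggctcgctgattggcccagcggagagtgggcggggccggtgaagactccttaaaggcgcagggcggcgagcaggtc
Hspa1b: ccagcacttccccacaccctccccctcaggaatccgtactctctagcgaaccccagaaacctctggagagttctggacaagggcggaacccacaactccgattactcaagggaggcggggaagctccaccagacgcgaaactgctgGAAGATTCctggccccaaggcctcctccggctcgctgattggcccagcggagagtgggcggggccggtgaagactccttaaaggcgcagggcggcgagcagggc
Hsph1: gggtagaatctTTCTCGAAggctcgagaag
Hspb1: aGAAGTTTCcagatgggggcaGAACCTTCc
Hspe1: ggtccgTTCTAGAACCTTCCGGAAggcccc

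Both Hspa1 genes held 1 GAANNTTC match at bases -104 to -97. Hsph1 held 1 TTCNNGAA match, at -33 to -26 or, counted from another listed start, at -54 to -47. Hspb1 held GAANNTTC matches at -117 to -110 and at -97 to -90. Hspe1 was the member with 3-unit matches, which overlap and together span bases -89 to -72. No match of these letters was in either Dnajb1 window. Thus 5 of the 6 genes held a 2-unit motif and 1 of 6 a 3-unit motif, whereas a 2-unit motif was in 14.5% and a 3-unit motif in 0.514% of the 27025 genes with an entry. By promoter, GAANNTTC was in 6.69% and TTCNNGAA in 7.17% of 32851. A match describes the letters and is not a measured binding site.

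The inducible HSP70 genes Hspa1a and Hspa1b, whose protein refolds damaged chains with the help of ATP, had the widest range of the 8. Hspa1b stood at 59.8, 413 and 1031 CPM in control and at 1277, 795 and 1585 CPM in adalimumab libraries of day 0 (replicates 1, 2 and 3, here and in all such lists). Control wounds held 28.2, 41.6 and 27.3 CPM of Hspa1b on day 3, 183, 13.6 and 13.5 CPM on day 7, and 14.8, 15.3 and 11.5 CPM on day 10. In adalimumab wounds it was at 9.77, 103 and 34.4 CPM on day 3, 20.4, 36.8 and 39.3 CPM on day 7, and 48.0 and 64.7 CPM on day 10. Of the 6 day 0 libraries, 5 thus lay above every wound, the exception being control day 0 replicate 1, and control day 7 replicate 1 was the highest wound. In bulk samples like these, fewer cells that express a gene and less RNA per cell cannot be told apart.

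For Hspa1a, day 0 values were 21.2, 167 and 407 CPM in control and 501, 274 and 713 CPM in adalimumab. Control wounds were at 7.20, 12.5 and 6.09 CPM on day 3, 64.6, 4.10 and 3.35 CPM on day 7, and 3.54, 4.81 and 3.57 CPM on day 10. Adalimumab wounds were at 4.28, 43.2 and 10.4 CPM on day 3, 4.81, 8.68 and 12.1 CPM on day 7, and 16.6 and 23.8 CPM on day 10. The order of the libraries was close to that of Hspa1b, with the same low day 0 library and the same high wound. Of the 50-base windows of the Hspa1a transcript, 60.3% also occurred in another gene's transcript, mainly Hspa1b (58.8%), so reads could be split between the copies (GENCODE M21 transcripts, on GRCm38). The ratio of Hspa1b to Hspa1a counts was 2.22 to 4.47 with a median of 3.19, and in each of the 11 comparisons the sum of the pair gave the same call as both genes.

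Hsph1, an HSP110 protein that exchanges the nucleotide of HSP70 and helps to dissolve aggregates, followed with 70.5, 256 and 754 CPM in control and 746, 854 and 1296 CPM in adalimumab on day 0. Its control wounds were at 127, 91.3 and 118 CPM on day 3, 344, 47.3 and 44.9 CPM on day 7, and 44.7, 37.2 and 40.9 CPM on day 10. Adalimumab wounds gave 71.4, 94.9 and 75.4 CPM on day 3, 27.6, 47.5 and 56.3 CPM on day 7, and 39.1 and 44.5 CPM on day 10. Here the low control day 0 library lay within the range of the wounds, and control day 7 replicate 1 was above 2 of the 3 control day 0 libraries. None of its 50-base windows was shared with another gene.

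Dnajb1, the HSP40 cochaperone that hands substrates to HSP70 and starts its ATP hydrolysis, varied over a far smaller range. It was at 50.8, 101 and 112 CPM in control and at 122, 76.8 and 116 CPM in adalimumab on day 0. Control wounds held 49.1, 49.4 and 38.5 CPM on day 3, 33.8, 39.2 and 35.8 CPM on day 7, and 32.3, 32.0 and 30.7 CPM on day 10. Adalimumab wounds held 33.6, 94.6 and 44.5 CPM on day 3, 32.3, 38.7 and 45.1 CPM on day 7, and 47.1 and 62.9 CPM on day 10. The highest wound was adalimumab day 3 replicate 2, and control day 7 replicate 1, high for other members, was among the 6 lowest libraries for this one.

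The small heat shock protein Hspb1, which holds unfolded proteins without ATP and is abundant in differentiating keratinocytes and muscle, was at 118, 366 and 579 CPM in control and at 521, 259 and 618 CPM in adalimumab on day 0. Control wounds had 28.3, 38.0 and 21.6 CPM on day 3, 154, 17.6 and 11.3 CPM on day 7, and 16.3, 20.6 and 29.5 CPM on day 10. Adalimumab wounds had 56.6, 198 and 56.3 CPM on day 3, 15.3, 77.3 and 85.1 CPM on day 7, and 70.5 and 129.6 CPM on day 10. All day 0 libraries but control replicate 1 lay above every wound. The highest wounds, adalimumab day 3 replicate 2 and control day 7 replicate 1, also led the wounds in Hspa1a and Hspa1b.

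Hsp90aa1, the inducible cytosolic HSP90 that matures kinases and steroid receptors, was at 298, 718 and 1802 CPM in control and 1802, 1761 and 2265 CPM in adalimumab on day 0. Control wounds were at 1109, 654 and 748 CPM on day 3, 1577, 545 and 537 CPM on day 7, and 345, 322 and 393 CPM on day 10. Adalimumab wounds were at 477, 611 and 525 CPM on day 3, 360.2, 414 and 395 CPM on day 7, and 293 and 302 CPM on day 10. The 3 adalimumab day 0 libraries lay above all wounds, whereas the control day 0 libraries spanned a wider range than the control wounds.

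The constitutive HSP70 Hspa8, which also uncoats clathrin vesicles and serves chaperone-mediated autophagy, was the most abundant member per kilobase in all 8 groups and the least variable. Its range was 1233 to 3143 CPM on day 0 and 1024 to 2841 CPM in wounds, the highest wound being control day 3 replicate 1. Hspe1, the mitochondrial HSP10 that caps the Hspd1 folding chamber, ranged from 66.1 to 218 CPM on day 0 and from 54.1 to 144 CPM in wounds. Control day 0 replicates 1 and 2 of Hspe1 lay within the range of the wounds. Windows shared with other transcripts made up 73.2% for Hspa8, 58.5% for Hsp90aa1, 51.6% for Hspb1, 36.1% for Hspe1 and 0.407% for Dnajb1. Those of Hspa8, Hsp90aa1 and Hspb1 were mostly shared with processed pseudogenes and those of Hspe1 with AC117239.2 (35.2%), annotated as protein-coding, so that the counts of these 4 may be split.

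**Figure D1:**
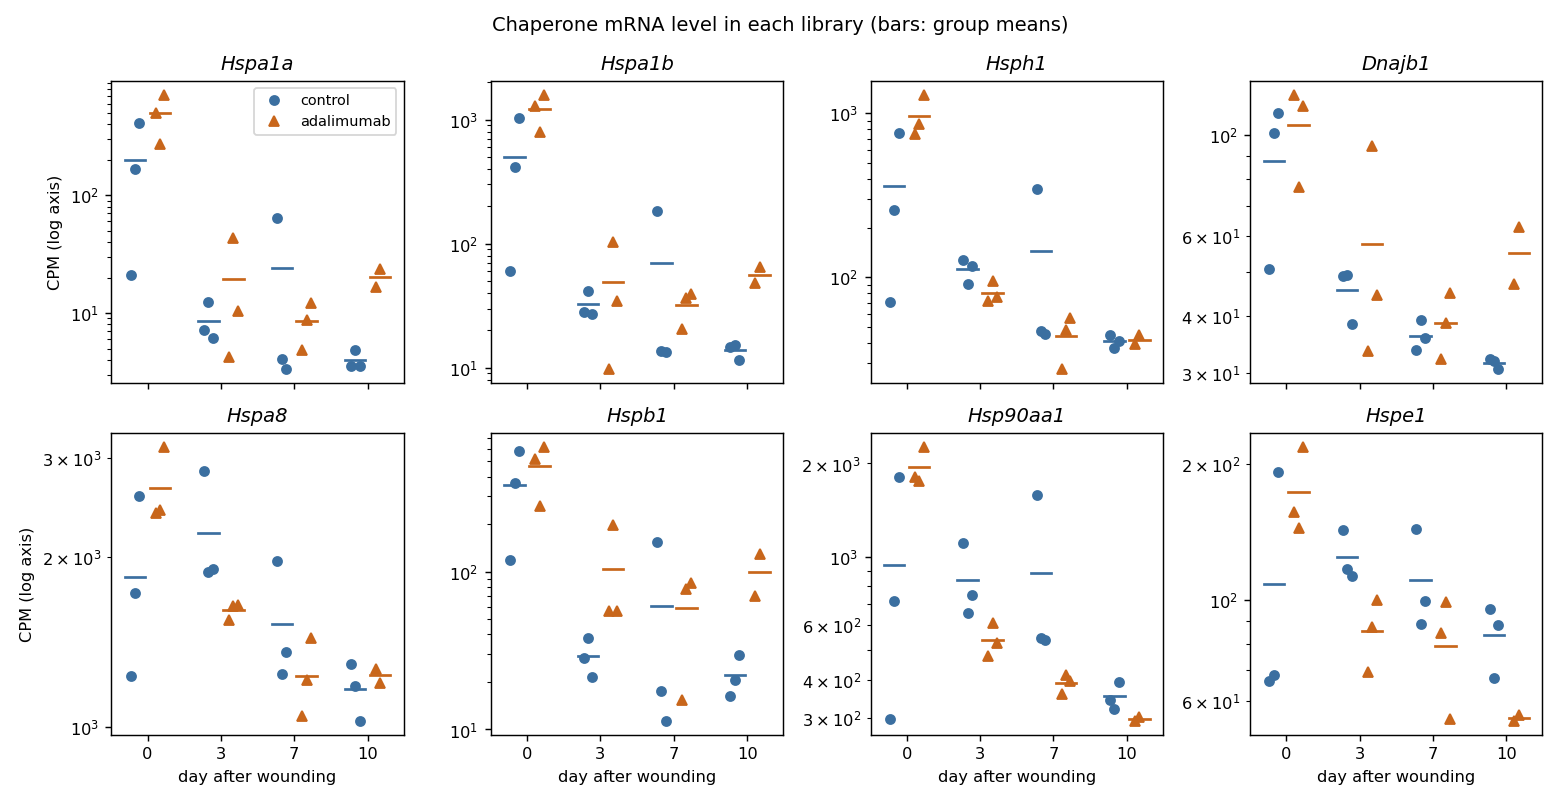
Level of each of the 8 chaperone genes in CPM (log axis) in the 23 libraries by day after wounding, with circles for control, triangles for adalimumab and bars for group means. For Hspa1b, 5 of 6 day 0 libraries lie above every wound, and control day 7 holds 1 library at 183 CPM above the other wounds.

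The ratio of the highest to the lowest library ordered the members as Hspa1a (213), Hspa1b (162), Hspb1 (54.7), Hsph1 (46.9), Hsp90aa1 (7.72), Hspe1 (4.04), Dnajb1 (3.99) and Hspa8 (3.07). The spread between replicates had the same order. The SD of log2 CPM within groups was 1.39 for Hspa1a, 1.30 for Hspa1b, 1.12 for Hspb1, 0.92 for Hsph1 and 0.60 for Hsp90aa1. It was 0.43 for Hspe1, 0.41 for Dnajb1 and 0.30 for Hspa8, against a median of 0.48 over all genes tested and of 0.27 over the 5463 genes with a mean log2 CPM of 5 or more. All 8 members thus differed more between mice of 1 group than the median of the well expressed genes, and the first 5 also more than the median of all genes. Per kilobase of exon, control day 0 levels were 429 CPM per kb for Hspa8, 344 for Hspb1, 239 for Hsp90aa1, 179 for Hspa1b, 73.8 for Hspe1, 66.8 for Hspa1a, 49.6 for Hsph1 and 27.4 for Dnajb1. On control day 10 the same order began with Hspa8 (271 CPM per kb) and Hsp90aa1 (89.9) and ended with Hspa1b (4.95) and Hspa1a (1.34). With 3 libraries a group, the middle of the day 0 order was not resolved, because the control day 0 libraries ran from 21.2 to 407 CPM in Hspa1a. The order also depends on the length used, here all exons of a gene together. For Hsph1 these made 7266 bases, against 3802 in its longest protein-coding transcript.

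Wounds of control mice held less Hspa1a, Hspa1b, Hspb1 and Dnajb1 than the skin of day 0 on each of the 3 days. On day 3 the genes Hspa1a, Hspa1b, Hspb1 and Dnajb1 fell, 4 of the 8, where 17.1% of all tested genes were lower (edgeR quasi-likelihood test with Benjamini-Hochberg adjustment over all tested genes, threshold 0.05, here and below). The median log2 difference over the 8 members was -1.31, and over all genes -0.02. Hspa1a fell by 4.53 on the log2 scale (± 1.15 SE, adjusted p = 0.00606), and Hspb1 fell by 3.60 (± 0.91, adjusted p = 0.00597). The corresponding values were -3.95 ± 1.04 for Hspa1b (adjusted p = 0.00765) and -0.94 ± 0.32 for Dnajb1 (adjusted p = 0.0297). Hsph1 did not pass (-1.69 ± 0.70, adjusted p = 0.0697), nor did Hsp90aa1 (-0.17 ± 0.46), Hspa8 (0.26 ± 0.26) or Hspe1 (0.20 ± 0.34). With the animal as a replicate block, in a fit of days 0 and 3 alone, 1 of 8 passed, Hspb1 (-3.32, adjusted p = 0.0234), and Hspa1a was at -3.74 (adjusted p = 0.0537). The Dnajb1 call also ended without control day 0 replicate 2 or 3, or control day 3 replicate 1 or 3 (adjusted p of 0.0657 to 0.128). The shares of all genes given beside the members belong to the main fit. Those of the block fits and of fits without single libraries are not given, here or for the later comparisons with day 0.

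On day 7 the same 4 control genes fell, where 17% of all genes were lower: Hspa1a (-3.04 ± 1.07, adjusted p = 0.0364), Hspa1b (-2.84 ± 0.99), Hspb1 (-2.54 ± 0.87) and Dnajb1 (-1.27 ± 0.32, adjusted p = 0.00632). The members' median was -1.29, against -0.01 over all genes. These values rested on a group in which replicate 1 stood far above the others, and without it Hspa1a was at -5.73, Hspa1b at -5.21 and Hspb1 at -4.61, with Hsph1 passing at -2.97. Fewer members passed without other libraries: 2 without control day 0 replicate 2, 2 without control day 0 replicate 3, 1 without control day 7 replicate 2 and 1 without control day 7 replicate 3. With the replicate number as a block 1 passed, but this number does not link the mice of day 7 to those of day 0.

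By day 10, 6 of the 8 had fallen in control, where 18.2% of all genes were lower, and the members' median was -2.30 against -0.01. The log2 differences were -5.64 ± 1.21 for Hspa1a (adjusted p = 0.0022), -5.18 ± 1.11 for Hspa1b, -4.00 ± 0.93 for Hspb1, -3.14 ± 0.74 for Hsph1, -1.47 ± 0.32 for Dnajb1 and -1.41 ± 0.47 for Hsp90aa1 (adjusted p = 0.0282). All 3 control wounds of this day lay below all control day 0 libraries in the first 5 of these, as did those of 27.5% of all genes. Hspa8 (-0.66 ± 0.26, adjusted p = 0.0563) and Hspe1 (-0.38 ± 0.34) did not pass. Without control day 0 replicate 3 the difference of Hsp90aa1 was -0.47 and that of Hsph1 -1.94, and the Hsp90aa1 call also ended without any one control day 10 library.

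In adalimumab mice, whose day 0 libraries were all high in Hspa1a and Hspa1b, 5 of 8 members fell on day 3, where 9.54% of all genes were lower, with a median of -2.01 against -0.06. These were Hspa1a (-4.68 ± 1.16, adjusted p = 0.00841), Hspa1b (-4.63 ± 1.08), Hsph1 (-3.58 ± 0.75, adjusted p = 0.00296), Hsp90aa1 (-1.85 ± 0.48) and Hspe1 (-1.02 ± 0.34, adjusted p = 0.04). Hspb1 was at -2.17 ± 0.86 (adjusted p = 0.0781), Dnajb1 at -0.87 ± 0.32 and Hspa8 at -0.72 ± 0.26 (adjusted p = 0.0552), and these 3 did not pass. The replicate block on the animal left 3 calls, Hspa1a (-5.32), Hspa1b (-5.20) and Hsph1 (-3.53). Hspe1 lost its call without any one of the 6 libraries (adjusted p of 0.0523 to 0.149). Without adalimumab day 3 replicate 2, the wound with the highest Dnajb1 and Hspb1, both of these passed (-1.43 and -3.05).

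All 8 members fell by day 7 in adalimumab, where 17.9% of all genes were lower, and in all 8 every wound lay below every day 0 library, as in 25.1% of all genes. The members' median was -2.65, against -0.10 over all genes. Hspa1a was at -5.86 ± 1.22 (adjusted p = 0.00209), Hspa1b at -5.24 ± 1.11, Hsph1 at -4.46 ± 0.79 (adjusted p = 0.000596), Hspb1 at -2.98 ± 0.88 and Hsp90aa1 at -2.32 ± 0.49. Smaller decreases were those of Dnajb1 (-1.44 ± 0.32), Hspe1 (-1.13 ± 0.34) and Hspa8 (-1.11 ± 0.26). The Hspb1 call ended without adalimumab day 0 replicate 3 or day 7 replicate 1, and the Hspe1 call without adalimumab day 0 replicate 3 or day 7 replicate 1 or 3.

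On day 10, 6 of 8 passed in adalimumab, where 5.41% of all genes were lower, with a median of -2.46 against -0.16. These were Hspa1a (-4.62 ± 1.38, adjusted p = 0.0328), Hsph1 (-4.53 ± 0.94, adjusted p = 0.00425), Hspa1b (-4.44 ± 1.27), Hsp90aa1 (-2.71 ± 0.58), Hspe1 (-1.66 ± 0.40) and Hspa8 (-1.10 ± 0.30). Hspb1 (-2.22 ± 1.00, adjusted p = 0.139) and Dnajb1 (-0.93 ± 0.36, adjusted p = 0.0904) did not. This group held 2 libraries, and none of the 8 passed without either of them, while 2 passed without adalimumab day 0 replicate 3.

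Adalimumab day 0 replicates 2 and 3 also held many transcripts of the hair follicle (2518 and 16870 CPM summed over 7 markers, against 7.63 to 28.5 CPM in control day 0). Replicate 1, without hair follicle excess, had like chaperone levels (Hspa1b 1277 CPM). With both hair-rich libraries left out, 1 day 0 library remained, and only sizes of differences are given. Those of Hspa1a were then -4.66 on day 3 and -4.52 on day 10. The part of hair follicle tissue in the day 0 chaperone levels was not tested.

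**Figure D2:**
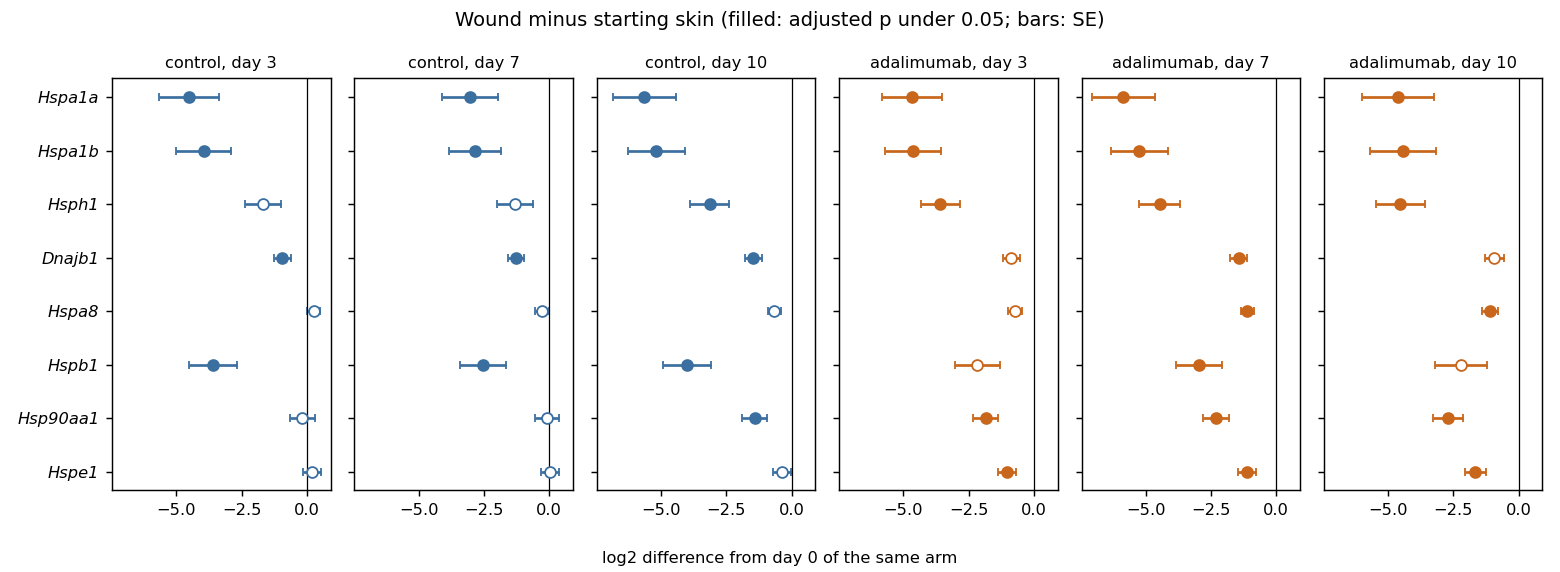
Log2 difference from day 0 of the same arm for each member on days 3, 7 and 10 (points, bars are SE), with filled points for an adjusted p under 0.05. Most points lie left of 0, and Hspa8, Hsp90aa1 and Hspe1 are near 0 on control days 3 and 7 and below 0 on all adalimumab days.

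Within single mice, the same animal could be followed from day 0 to day 3. Hspa1a, Hspa1b and Hspb1 were lower on day 3 in 6 of 6 mice. For Hspa1b the log2 changes were -1.08, -3.31 and -5.24 in control mice 1, 2 and 3, and -7.02, -2.94 and -5.52 in adalimumab mice. The decrease was least in control mouse 1, which began lowest, at 59.8 CPM, and largest in the 3 mice that began highest. In that mouse 4 members were higher on day 3, by 1.90 for Hsp90aa1, 1.20 for Hspa8, 1.11 for Hspe1 and 0.85 for Hsph1 on the log2 scale. Control mouse 2 had Hspe1 at 0.78 and Hspa8 at 0.12, and Hsp90aa1 at -0.13. In the 3 adalimumab mice, every member was lower on day 3 except Dnajb1 in mouse 2, at 0.30. Such a relation of a change to its own starting value arises in part by construction, and is given as a description.

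**Figure D3:**
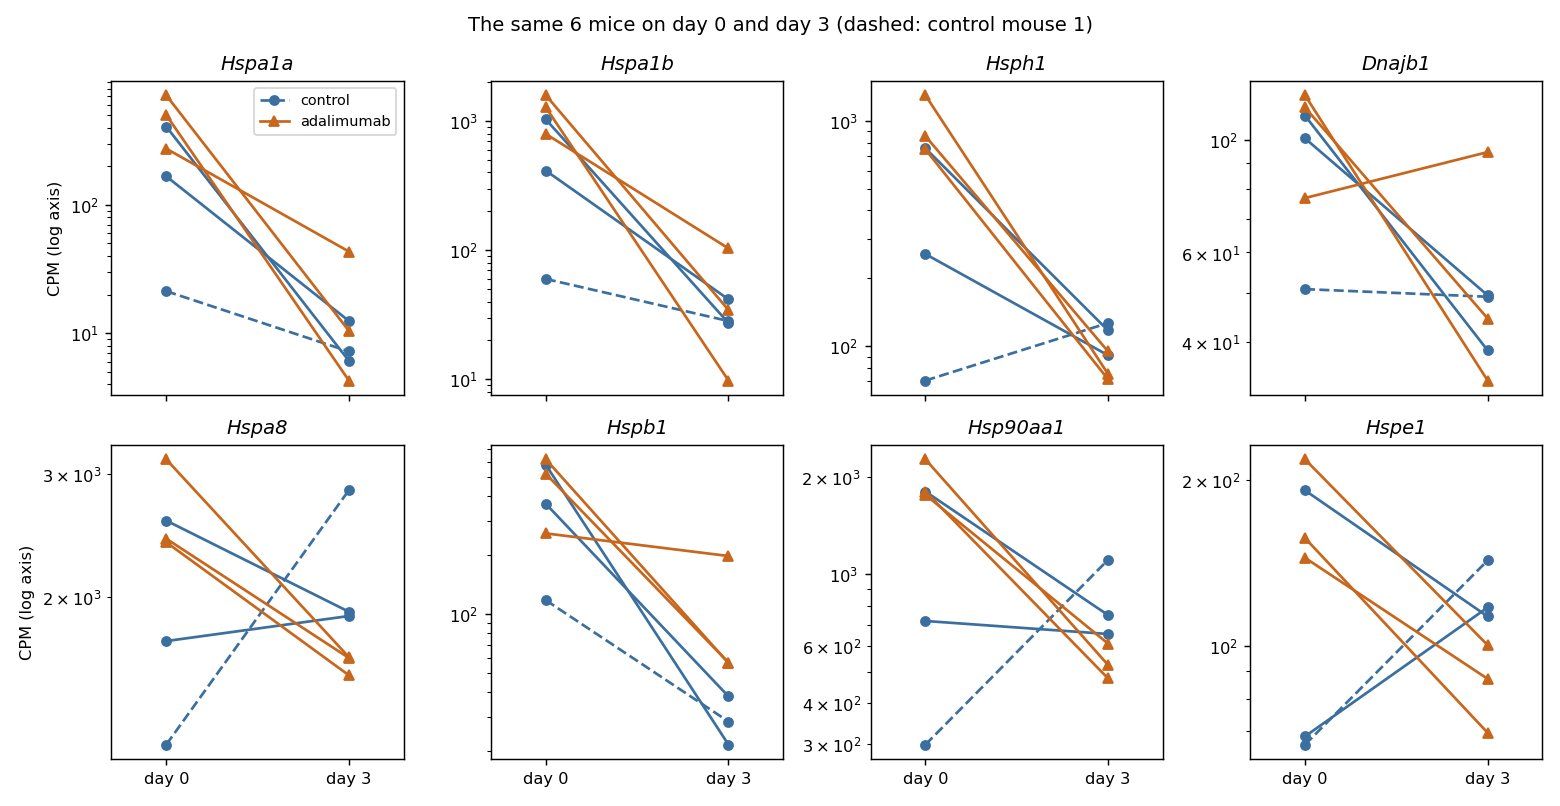
CPM (log axis) of each member in the same 6 mice on day 0 and day 3, with circles for control, triangles for adalimumab and a dashed line for control mouse 1. All 6 lines fall for Hspa1a, Hspa1b and Hspb1, while the dashed line rises for Hsph1, Hspa8, Hsp90aa1 and Hspe1.

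Whether the antibody changed the chaperones was asked by comparing the arms on each day, and no member passed on any day. On day 0 all 8 values were higher in adalimumab, from 0.26 for Dnajb1 to 1.42 ± 0.69 for Hsph1 (adjusted p = 0.389), with Hsp90aa1 at 1.05 ± 0.47 (adjusted p = 0.341). Of the members 0 of 8 passed, where 0.269% of all genes were called. At an unadjusted p under 0.05 there was 1 member and 3066 of all genes. The members' median was 0.86 and that of all genes 0.00. The arms overlapped in every member, since control replicate 3 was as high as the adalimumab mice. DESeq2 called 0, and limma voom, which gives libraries different weights, called 6 of 8 and 7334 of all genes.

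On day 3 the members split in direction by value, with 4 higher and 4 lower in adalimumab and none passing, where 0% of all genes were called. Hspb1 was at 1.82 ± 0.85 (adjusted p = 0.285) and Hspa1a at 1.17 ± 1.01, while Hsp90aa1 was at -0.64 ± 0.47, Hspe1 at -0.54 ± 0.34 and Hspa8 at -0.46 ± 0.26. The arms did not overlap in 4 of 8 members (Hspb1, Hsp90aa1, Hspe1 and Hspa8), and 15.1% of all genes did not overlap. The positive values of Hspa1a, Hspa1b and Dnajb1 turned to -0.22, -0.55 and -0.23 without adalimumab day 3 replicate 2. At an unadjusted p under 0.05 there was 1 member and 3916 of all genes, and DESeq2 and voom called no member.

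On day 7, 7 of 8 values were lower in adalimumab, led by Hsph1 (-1.73 ± 0.70) and Hspa1a (-1.49 ± 1.02), each with an adjusted p of 1. None passed, again with 0% of all genes called, 2 members and 945 genes were under 0.05 unadjusted, and DESeq2 and voom called no member. Without control replicate 1, 3 of the 7 turned, with Hspa1a at 1.20, Hspa1b at 1.24 and Hspb1 at 2.03, and the other 2 controls, at 13.6 and 13.5 CPM of Hspa1b, lay below all 3 adalimumab wounds. The other 4 kept a negative value without that library, at -0.07 for Hsph1, -0.08 for Hspa8, -0.25 for Hspe1 and -0.47 for Hsp90aa1. Adalimumab replicate 3 of this day held Xist in place of Ddx3y, unlike the other libraries of the day, so the arms were not balanced for sex.

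On day 10, 4 members led the values higher in adalimumab, Hspa1a by 2.35 ± 1.12 on the log2 scale (adjusted p = 0.355), Hspb1 by 2.17 ± 0.92 (adjusted p = 0.302), Hspa1b by 2.02 ± 1.03 and Dnajb1 by 0.80 ± 0.35. Hsph1 was at 0.03 and Hspa8 at 0.08, and Hsp90aa1 (-0.25 ± 0.52) and Hspe1 (-0.61 ± 0.38) were lower by value. Both adalimumab libraries lay above all 3 controls for the first 4 genes and below them for the last 2, so that 6 of 8 members did not overlap, against 46.9% of all genes in this comparison of 2 with 3 libraries. None of the 8 passed, where 0% of all genes were called, with 2 members and 3245 genes under 0.05 unadjusted. DESeq2 called 0 and voom 2 members, and a fit of the 2 groups alone called 4, the 4 that were higher. How many of all genes voom and that fit called is not given here, so these counts have no share beside them. Keratinocyte markers, each detected in every library, also stood apart on this day, at 18036 and 24597 CPM in the 2 adalimumab libraries and 1614 to 3010 CPM in control, with 10 of 10 higher by value (median 2.49) and 0 passing. Their part in the difference of the members was not tested.

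**Figure D4:**
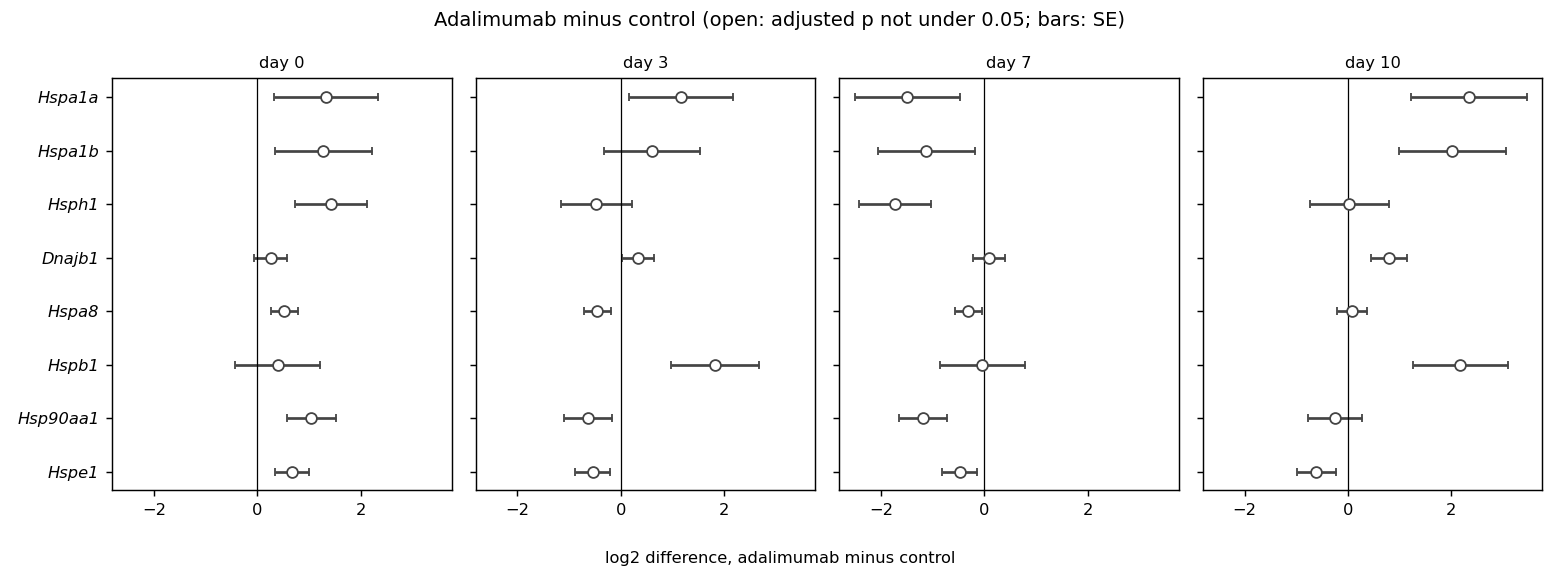
Log2 difference of adalimumab minus control for each member on days 0, 3, 7 and 10 (open points, bars are SE; no point had an adjusted p under 0.05). All 8 points lie right of 0 on day 0, 7 of 8 left of 0 on day 7, and Hspa1a, Hspa1b and Hspb1 near 2 on day 10.

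The decrease from day 0 to day 3 was compared between the arms by an interaction. No member passed, 0 of 8, where 1.81% of all genes did in either direction. The smallest adjusted p was that of Hspa8 (-0.98 ± 0.37, adjusted p = 0.146), followed by Hsp90aa1 (-1.69 ± 0.66, adjusted p = 0.163), Hspe1 (-1.21 ± 0.48, adjusted p = 0.164) and Hsph1 (-1.90 ± 0.97, adjusted p = 0.28). Thus Hsph1, Hsp90aa1 and Hspe1, which passed on day 3 in adalimumab and not in control, were not shown to differ between the arms. At an unadjusted p under 0.05 there were 3 members and 4723 of all genes. DESeq2 and the fit with the animal as a block called 0, and voom called 4, Hsph1, Hsp90aa1, Hspa8 and Hspe1. The share of all genes that voom called in the interaction is not given here.

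Across the 23 libraries the members largely moved together. Pearson's r of log2 CPM between pairs of members ran from 0.359 (Hspe1 and Hspb1) to 0.995 (Hspa1a and Hspa1b), with a median of 0.789 over 28 pairs. These libraries share animals and day, so the values describe the pattern and were not tested. Adalimumab day 0 replicate 3 was the highest library for 7 of the 8 members, and replicate 1 of that group for Dnajb1. Control day 7 replicate 1 was among the 6 highest for 6 members, and control day 0 replicate 1 for none. Among 12898 other genes, those most like the mean of the 8 were further chaperones: Hspa4l (r = 0.961), an HSP110 protein, the Hspb1 pseudogene Hsp25-ps1 (0.919), the HSP40 protein Dnaja4 (0.914), the HSP90 cochaperone Fkbp4 (0.914) and the HSP40 protein Dnajb2 (0.903). Hspb1 shared 51.6% of its windows with Hsp25-ps1, so that pair can share reads. The 5 genes most like Hspa1b alone were the same, with r from 0.884 to 0.934. Genes with Gm or Rik symbols, such as Gm15459, which holds 70% of the Hspa8 windows, were left out of both rankings.

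The other cytosolic chaperones, cochaperones and heat shock factors went both ways on control day 3, and more of them fell than rose in the other 5 comparisons with day 0. Of 49 genes, 9 rose and 11 fell on control day 3, 1 rose and 15 fell on day 7, and 0 rose and 21 fell on day 10. Over all genes tested, 17.5%, 16.4% and 16.2% rose on control days 3, 7 and 10, and 17.1%, 17% and 18.2% fell. In adalimumab 1 rose and 14 fell on day 3, 1 rose and 32 fell on day 7, and 0 rose and 19 fell on day 10, where 11.9%, 14.6% and 9.02% of all genes rose and 9.54%, 17.9% and 5.41% fell. Over days 3, 7 and 10 the control medians of the list were -0.07, -0.39 and -0.57, against -0.02, -0.01 and -0.01 over all genes. Those of adalimumab were -0.24, -0.73 and -0.78, against -0.06, -0.10 and -0.16. Dnajb2 fell on all 3 days in both arms, with log2 differences of -1.48 to -1.86 in adalimumab, and Fkbp4 was at -1.71 to -2.11 there. Those that rose on control day 3 included Cct8 (1.02 ± 0.18, adjusted p = 0.00048) and Cct6a (0.88 ± 0.17), subunits of the TRiC chaperonin that folds actin and tubulin. In the interaction Chordc1 (-1.21 ± 0.30, adjusted p = 0.0458) and Hspa14 (-0.98 ± 0.24, adjusted p = 0.048) passed, both with the lower value in adalimumab.

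Among 11 mitochondrial chaperones and proteases, which include Hspd1, the partner of Hspe1, 5, 6 and 8 fell on control days 3, 7 and 10 (17.1%, 17% and 18.2% of all genes), and 3, 7 and 4 in adalimumab (9.54%, 17.9% and 5.41%). The list's medians on those days were -0.54, -0.67 and -1.02 in control, where those of all genes were -0.02, -0.01 and -0.01, and -0.14, -0.87 and -0.48 in adalimumab, where those of all genes were -0.06, -0.10 and -0.16. Htra2, a protease of the intermembrane space, rose in each of these comparisons (1.44 ± 0.24 on control day 3). Hspd1 was at 0.19 ± 0.38 on control day 3 and -0.55 ± 0.38 on day 7, and fell on control day 10 (-1.50 ± 0.39, adjusted p = 0.00736) and on adalimumab days 3, 7 and 10 (-1.28, -2.28 and -2.14). In RefSeq promoters, 1 of 8 genes of this list with an entry held the 3-unit motif, Hspd1.

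The chaperones of the endoplasmic reticulum, which fold secreted proteins such as collagen and answer to the unfolded protein response, went the other way. Of 20 genes, 16 rose and 1 fell on control day 3, 11 and 1 on day 7, and 9 and 1 on day 10, with medians of 1.39, 0.70 and 0.52, whereas 17.5%, 16.4% and 16.2% of all genes rose. In adalimumab 9 rose and 1 fell on day 3, 7 and 1 on day 7, and 2 and 0 on day 10, with medians of 0.59, 0.44 and 0.32, whereas 11.9%, 14.6% and 9.02% of all genes rose. The 2 of 20 on adalimumab day 10 are near that share. Their summed level was 2916 to 4226 CPM in the 6 day 0 libraries and 4943 to 11061 CPM in the 17 wounds, with no overlap. The protein disulfide isomerase Pdia4 rose most clearly on control day 3 (2.38 ± 0.23, adjusted p = 5.14e-06), with Pdia6 (1.71 ± 0.17), the secreted stress factor Manf (2.15 ± 0.25) and the HSP90 of the endoplasmic reticulum, Hsp90b1 (1.98 ± 0.23). Serpinh1, the collagen chaperone, rose by 2.20 ± 0.19 on control day 7. The gene that fell on control day 10 was Herpud1, a factor of protein degradation (-0.96 ± 0.18). For Pdia4 the interaction passed (-1.49 ± 0.31, adjusted p = 0.0261). No gene of these 3 lists passed between the arms on any day. None of the 17 genes with a promoter entry in this list held a 2-unit heat shock motif, compared with 11 of 41 in the cytosolic list and 14.5% of all genes with an entry.

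Of the other lists, immediate early genes stood out in 2 libraries, and some Nrf2 and metal stress genes changed between day 0 and day 3. Immediate early genes, which are transcribed within minutes of a stimulus, summed to 3120 CPM in control day 0 replicate 2 and 2901 CPM in adalimumab day 3 replicate 2, and to 703 to 1423 CPM in the other 21 libraries. The second of these 2 libraries was also the wound with the highest Dnajb1 and Hspb1, but the day 0 libraries with the highest members were at 1132, 1055 and 1070.5 CPM of immediate early genes. Of the 20 immediate early genes, 5, 3 and 4 fell on control days 3, 7 and 10, where 17.1%, 17% and 18.2% of all genes fell. On each of these days 1 rose. In adalimumab 0 fell on any day, where 9.54%, 17.9% and 5.41% of all genes fell, and 2 rose on day 3. Between the arms on day 3, 19 of 20 were higher in adalimumab by value (median 1.24) and 0 passed. Of 10 Nrf2 and metal stress genes, 3 rose and 1 fell on control day 3 and 3 rose and 0 fell on adalimumab day 3. Over all genes 17.5% and 11.9% rose. The rise was led by the haem oxygenase gene Hmox1 (4.43 ± 0.68 in control and 4.13 ± 0.67 in adalimumab). Sqstm1 fell in control (-0.83 ± 0.24, adjusted p = 0.0119) and rose in adalimumab (0.83 ± 0.24, adjusted p = 0.0188). It was the 1 gene of this list to pass in the interaction (1.67 ± 0.34, adjusted p = 0.0261), where 1.81% of all genes did.

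Skeletal muscle markers, from the thin muscle under the skin that full-thickness punches pass, moved with the members between day 0 and wounds, and only in part within day 0. Summed over 7 genes, all present in every library, they were at 6621 to 39214 CPM on day 0 and 8.39 to 10733 CPM in wounds. The highest wound was control day 7 replicate 1, the wound with the highest Hspa1b. Within day 0, control replicate 1, lowest in Hspa1b, held 26806 CPM of muscle markers, whereas adalimumab replicate 3, highest in Hspa1b, held 7580 CPM. Control replicate 3, the highest control day 0 library in Hspa1b (1031 CPM), held the most muscle markers of all libraries (39214 CPM). Adalimumab day 3 replicates 1 and 2 had like muscle levels (4794 and 5869 CPM) and Hspa1b at 9.77 and 103 CPM. Replicate 1 of these was also the wound with the fewest epidermal keratinocyte markers (11.3 CPM, against 5685 CPM in replicate 2, and Krt5 at 1.38 against 1479 CPM) and the most adipocyte markers (12695 CPM). Without it 4 of 8 members still fell on adalimumab day 3, with Hspa1b at -4.10 and Hspe1 no longer passing, and 0 passed between the arms or in the interaction. Adipocyte markers were at 2983 to 12929 CPM on day 0 and 137 to 12695 CPM in wounds, and macrophage markers at 190 to 1376 CPM on day 0 and 1884 to 7642 CPM in wounds. The part of this shift in cell types in the lower chaperone levels of wounds was not tested.

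**Figure D5:**
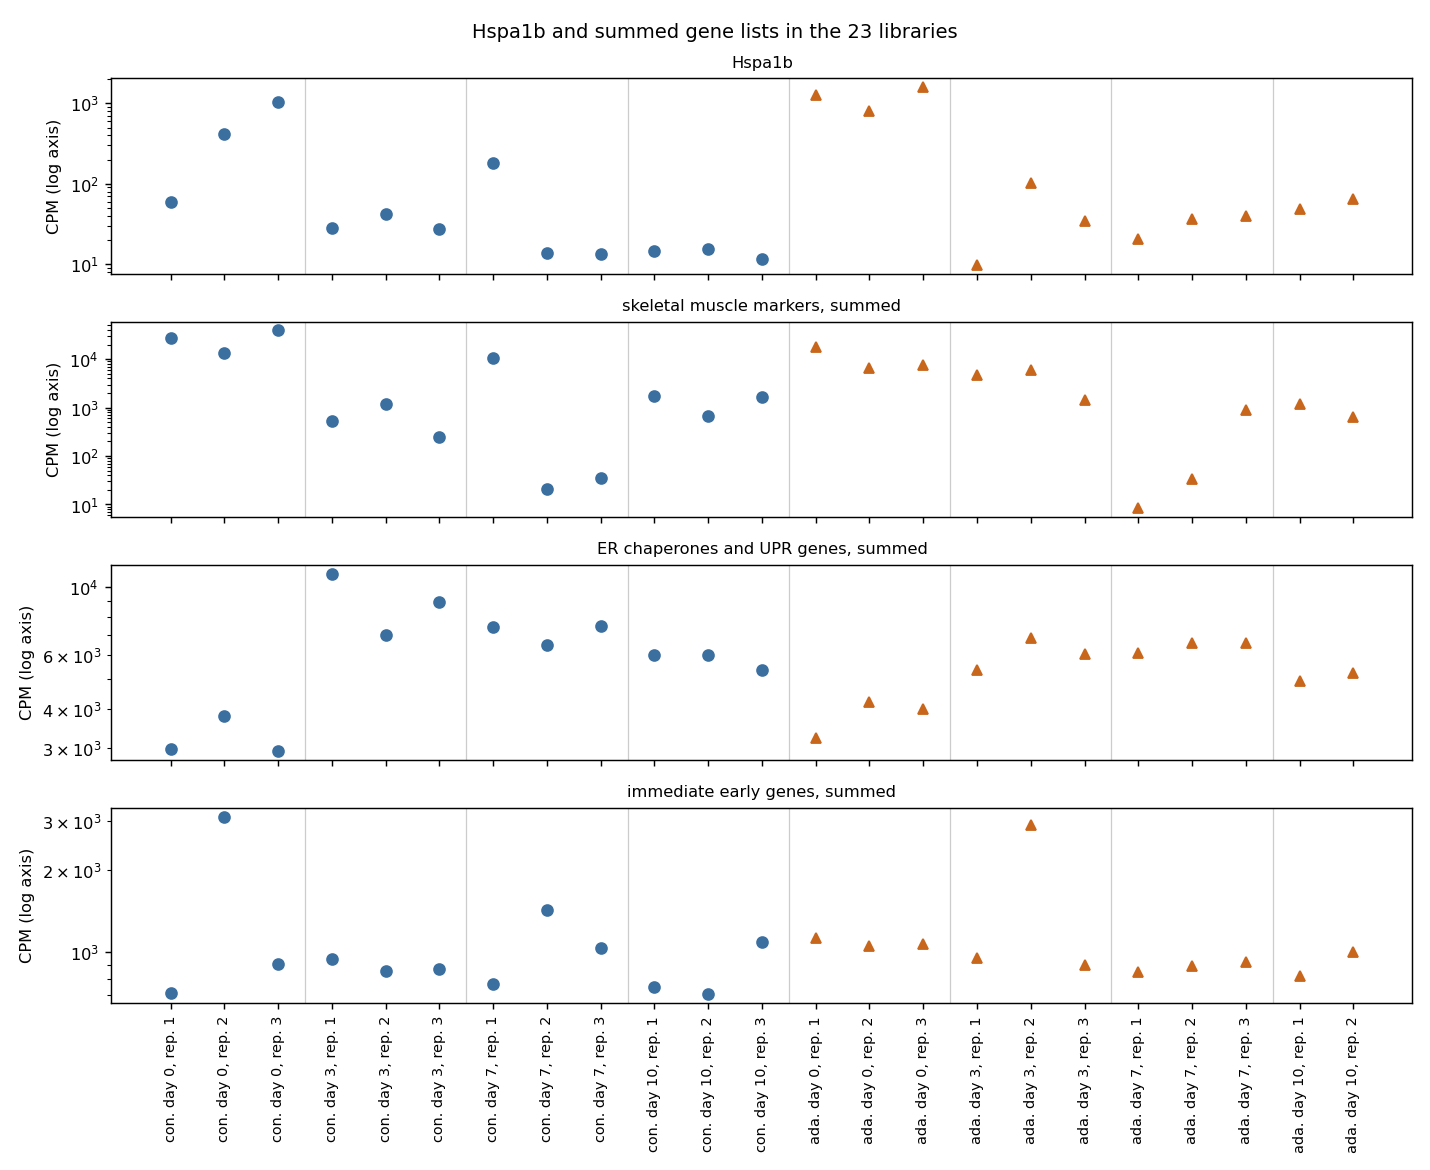
CPM (log axes) in each of the 23 libraries of Hspa1b and of the summed skeletal muscle markers, endoplasmic reticulum (ER) chaperone and unfolded protein response (UPR) genes and immediate early genes, with circles for control and triangles for adalimumab. The sum of ER chaperone genes is below 4943 CPM in all day 0 libraries, and the 2 libraries with high immediate early genes are not those with the highest Hspa1b.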

How the data were processed

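RNA from 23 skin and wound samples was made into stranded total RNA libraries and read once for 50 bases, per the labels' protocols. The submitters' processing notes name STAR (version not given) and GRCm39. Not given in the sources used here are the counting tool, the annotation and the strand setting. The authors deposited whole-number counts per gene, with no sign of normalization in the values. Groups were taken from the labels.

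Counts were analysed with edgeR 4.0.16 in R 4.3.3 (TMM scaling, filterByExpr with a minimum count of 10, glmQLFit, then glmQLFTest, with a mean for each of the 8 groups in 1 fit of the 23 libraries), tested on simulated data before use. The Benjamini-Hochberg adjustment ran over 23083 genes, and the common dispersion was 0.181. Values after ± are SE of log2 differences. CPM use TMM scaled totals, and log2 CPM a prior count of 3. P-values measure the spread between libraries of the same group, which came from mice with separate label numbers.

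Days 0 and 3 of an arm share mouse numbers, so these samples are paired by mouse. The main fit had no term for the mouse and treated them as independent. Deviations from the group means correlated between the 2 samples of a mouse at -0.08, -0.04 and -0.08 (control) and at 0.26, -0.11 and 0.26 (adalimumab). The replicate block for day 3 was fitted to days 0 and 3 alone.

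The members, lists and tests were chosen with earlier results of these data known. From each other list at most 4 genes per comparison are named, by smallest adjusted p, and a few more as partners of a member (Hspd1) or because they resembled the members over the libraries. Likeness was Pearson's r over genes whose mean log2 CPM was 1 or more. The members, mitochondrially encoded genes and genes with Gm, Rik or clone-style symbols were left out of it. Alternatives were RLE size factors, other count filters, DESeq2 1.42.0, limma 3.58.1 voom with sample weights, a fit of the compared groups alone, replicate blocks, leaving out each library and summing the Hspa1 pair. Removing mitochondrial genes, leaving out both hair-rich adalimumab day 0 libraries and leaving out the control day 0 and day 7 libraries numbered 1 were chosen after seeing the data. Windows of 50 bases were compared with GENCODE M21 transcripts, which are on another build than the counts.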

Additional observations from a re-analysis of the deposited data

How the results depend on the processing

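Numbers of members that passed were within 1.5 times those reported under most settings, with these exceptions. For adalimumab against control, limma voom with sample weights gave 6 on day 0 and 2 on day 10, and a fit of the compared groups alone gave 4 on day 10, against 0. For the interaction voom gave 4, against 0. Day 3 against day 0 in control gave 1 with the animal as a replicate block and 2 with voom, against 4, and in adalimumab 3 with the block, against 5. Day 7 against day 0 in control gave 1 with the compared groups alone, 1 with the replicate block by number, and 1 to 5 when single libraries were left out, against 4. In adalimumab, leaving out both hair-rich libraries left 1 day 0 library, so no counts are given for that fit. Fewer than 6 passed on adalimumab day 10 without some single libraries. The block by number, which also joins different mice, changed no other count by over 1.5 times. The cause of these changes was not tested, beyond the fewer libraries that some settings use. Apart from voom on day 0, the share of all genes called is not given for these alternatives.

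Signs turned in differences of members that had not passed. For adalimumab against control on day 7, voom gave 0.53 for Hspa1a, 0.69 for Hspa1b and 1.70 for Hspb1, and leaving out the control day 0 and day 7 libraries numbered 1 gave 1.22, 1.27 and 2.06. Hspb1 on that day was also at 0.0041 with the stricter filter and 0.032 without mitochondrial genes. On day 0 that pair of libraries left out gave -0.053 for Dnajb1 and -0.056 for Hspb1. For Hsp90aa1, control day 3 against day 0 was at 0.17 with the animal block and 0.85 with voom, and day 7 at 0.44 with voom. For Hspe1 in control, day 10 was at 0.044 with voom, and without the libraries numbered 1 day 3 was at -0.031 and day 7 at -0.42. The interaction of Dnajb1 was at -0.14 with the block, -0.37 with voom and -0.10 without the hair-rich libraries, and that of Hspa1a at 0.39 without the libraries numbered 1.

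With single libraries left out, adalimumab against control ran from -0.053 to 0.43 for Dnajb1 and -0.056 to 0.90 for Hspb1 on day 0. On day 3 it ran from -0.23 to 0.59 for Dnajb1, -0.22 to 1.62 for Hspa1a and -0.55 to 1.07 for Hspa1b. On day 7 it ran from -1.96 to 1.20 for Hspa1a, -1.56 to 1.24 for Hspa1b and -0.48 to 2.03 for Hspb1, and on day 10 from -0.0068 to 0.20 for Hspa8 and -0.057 to 0.14 for Hsph1. In control against day 0, Hsp90aa1 ran from -0.56 to 0.72 on day 3 and -0.80 to 0.84 on day 7, Hspa8 from -0.51 to 0.085 on day 7, and Hspe1 from -0.031 to 0.88, -0.21 to 0.76 and -0.59 to 0.37 on days 3, 7 and 10. The interaction ran from -0.49 to 0.38 for Dnajb1 and -1.55 to 0.39 for Hspa1a. The lowest count of any member in any library was 114, and the part of depth in these changes was not tested.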
